A study of Mus musculus with 6 samples.

Results

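The genes described here are 10 genes of the circadian clock: Cry1, Cry2, Per1, Per2, Per3, Arntl, Clock, Nr1d1, Nr1d2 and Dbp. The array measures transcript clusters, sets of probes that together cover 1 transcript, and each gene was represented by the cluster annotated with its symbol and no other. Where a gene had more than 1 such cluster, the one with the highest mean signal was used. This gave 9 of the 10 genes among 19688 genes with a value, because the only cluster of Per2 is shared with the transcript 9830107B12Rik. The list was put together with earlier results of these arrays known, and Cry2 was chosen by its difference between the genotypes on these 6 arrays, so the differences of these genes are a description and not independent evidence.

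Total RNA of P16 C57BL/6 mice was hybridised to 6 Affymetrix mouse exon arrays, 3 from control (Atg7+/+) and 3 from conditional knockout (cKO, Atg7f/f) animals. ATG7 is an enzyme that autophagy, the delivery of cell contents to lysosomes, cannot do without, and in the cKO its floxed gene is removed by Cre recombinase. Both groups carry a Cre driver. The sample labels call it NexCre, a driver of excitatory forebrain neurons, while the methods of the study call it Nestin-Cre, which is active in neural precursors and so reaches neurons and glia. The labels give the tissue as brain and the methods as cerebral cortex. The sources used here do not give the hour at which the tissue was taken, no series of times was sampled, and no source says that each array is a separate animal, so p-values measure only the spread between these samples.

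The clock is a feedback loop of transcription. CLOCK and ARNTL (also called BMAL1) form an activator that binds E-box sequences and turns on the Per and Cry genes, and the PER and CRY proteins then repress that activator. In a second loop the nuclear receptors encoded by Nr1d1 and Nr1d2 (REV-ERB alpha and beta), also driven by E-boxes, repress Arntl, while DBP carries the rhythm to other genes through D-box sequences. In most mouse tissues the mRNA of Arntl therefore peaks when Nr1d1, Dbp and the Per genes are low. A shift of the clock's phase can move these sets in opposite directions, depending on the hour of sampling.

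The arrays as a whole set the scale for what follows. The correlation between any 2 arrays over all clusters lay between 0.936 and 0.957. Atg7 was lower by 0.48 on the log2 scale in the cKO (standard error 0.092), every cKO array below every control, in a cluster that also carries another symbol. The 4 measured markers of striatal neurons, which lie outside the cortex, were all lower in the cKO and had summed linear signals of 546 to 1204 in the controls against 302 to 558 in the cKO arrays. Astrocyte markers were higher in 4 of 4 genes, with summed signals of 1051 to 1123 in the controls and 1172 to 1178 in the cKO, and oligodendrocyte markers were lower in 3 of 3, with 1137 to 1492 and 919 to 1357. Interneuron markers were lower in 4 of 4 and overlapped, and markers of cortical excitatory neurons, the cells of the NexCre label, were lower in 3 of 4, with 2183 to 2480 and 1860 to 2246. Among these Neurod6, at whose locus NexCre is placed, differed by -0.44 (standard error 0.15), with no overlap. Ttr, a choroid plexus gene, ran from 5.38 to 9.62 in the controls and from 5.58 to 9.88 in the cKO arrays. The part of these cells in the values below was not tested, and in whole tissue fewer cells of a type and less RNA per cell cannot be told apart. Both arrays numbered 1 stood apart on the first principal component, which held 36% of the variance, at -13.9 and -26.4 against 2.52 to 16 for the other 4. The cKO array numbered 1 also had Xist, the transcript of the inactive X chromosome, at 9.51 against 3.48 to 4.15 elsewhere. With limma, 0 of 19688 genes (0%) had an adjusted p under 0.05, and 780 (3.96%) had an unadjusted p under 0.05.

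Cry2, which encodes a cryptochrome that represses CLOCK and ARNTL, was higher in all 3 cKO arrays. Its log2 signal in transcript cluster 6888835 was 4.44, 4.49 and 4.16 in the controls against 6.33, 5.66 and 5.56 in the cKO arrays, here and throughout in the order of replicates 1 to 3. The lowest cKO array lay above the highest control array by more than the whole range of either group, 0.33 in the controls against 0.77 in the cKO. The control mean was 4.37 ± 0.18 (SD, n = 3) and the cKO mean 5.85 ± 0.42 (SD, n = 3), which differ by 1.48 (standard error 0.21). The values used here carry no detection call and the control signals of Cry2 were dim, so this is a difference of measured signals and no exact fold is given. By size this difference ranked 6 among the 19688 genes, of which 16 (0.0813%) differed by more than 1. Cry2 moved from a dim signal, above 22.9% of the genes in the control means, to one above 56.4% in the cKO means. It was the only clock gene whose groups did not overlap, against 8.4% of all genes, and since it was chosen for this contrast nothing is read from that count. Its size stayed between 1.24, without cKO replicate 1, and 1.63, without cKO replicate 3, when 1 array was left out. No other cluster carries the symbol Cry2 alone, so a second set of probes for the gene was not at hand.

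Cry1, the other cryptochrome gene and the closest relative of Cry2, did not share this pattern. Its log2 signal was 5.67, 5.57 and 5.45 in the controls against 5.63, 5.47 and 5.36 in the cKO arrays. The groups overlapped almost throughout, and the highest value was that of a control array. The difference was -0.08 with a standard error of 0.10 (limma, adjusted p = 1) with a 95% confidence interval of -0.32 to 0.16.

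The promoters of the pair are shown because both genes are driven by the same activator while their values between the genotypes were unlike. The 250 bases before the start site were taken from RefSeq in build GRCm38.p6, written from 5′ to 3′ in the gene's own direction, with E-box motifs (CACGTG) and the related sequence CACGTT, searched on both strands, in capitals.
Cry1 (chr10:85185055-85185304, minus strand): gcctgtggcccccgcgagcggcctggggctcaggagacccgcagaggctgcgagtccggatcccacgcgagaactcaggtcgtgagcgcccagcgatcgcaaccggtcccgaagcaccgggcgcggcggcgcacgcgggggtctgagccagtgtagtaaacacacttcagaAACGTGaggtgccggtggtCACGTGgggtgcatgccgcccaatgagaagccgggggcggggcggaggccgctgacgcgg
Cry2 (chr2:92434070-92434319, minus strand): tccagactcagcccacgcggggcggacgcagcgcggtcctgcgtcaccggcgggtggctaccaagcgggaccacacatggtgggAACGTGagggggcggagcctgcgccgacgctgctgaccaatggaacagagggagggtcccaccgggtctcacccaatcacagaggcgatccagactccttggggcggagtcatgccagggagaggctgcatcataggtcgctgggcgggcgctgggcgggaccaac
The Cry1 sequence holds 1 E-box, which begins 60 bases before the start, and 1 CACGTT. The Cry2 sequence holds 1 CACGTT, read as AACGTG on this strand, and no E-box in this window. Of 32851 promoter windows of the same length, 6.02% hold an E-box and 3.85% a CACGTT, and a match is a description of letters and not a site of binding.

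The genes on both sides of Cry2 were looked at because position had no part in how it was chosen. Of the 5 measured genes on each side in the RefSeq order, 4 of 10 were higher in the cKO, with a median difference of -0.03, against -0.01 for all genes. Mapk8ip1, a scaffold gene of JNK signalling and the nearest measured neighbour on one side, differed by -0.06 (standard error 0.13). Slc35c1, a GDP-fucose transporter gene on the other side, differed by -0.03 (standard error 0.15). The neighbour with the largest difference was D930015M05Rik, a noncoding transcript that RefSeq places inside the span of Cry2. Its log2 signal was 5.46, 5.35 and 5.35 in the controls against 6.26, 5.005 and 5.77 in the cKO arrays. Replicates 1 and 3 of the cKO thus lay above every control and replicate 2 below every control, so this transcript did not follow Cry2 there. It differed by 0.29 with a standard error of 0.29 (limma, adjusted p = 1).

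**Figure D1:**
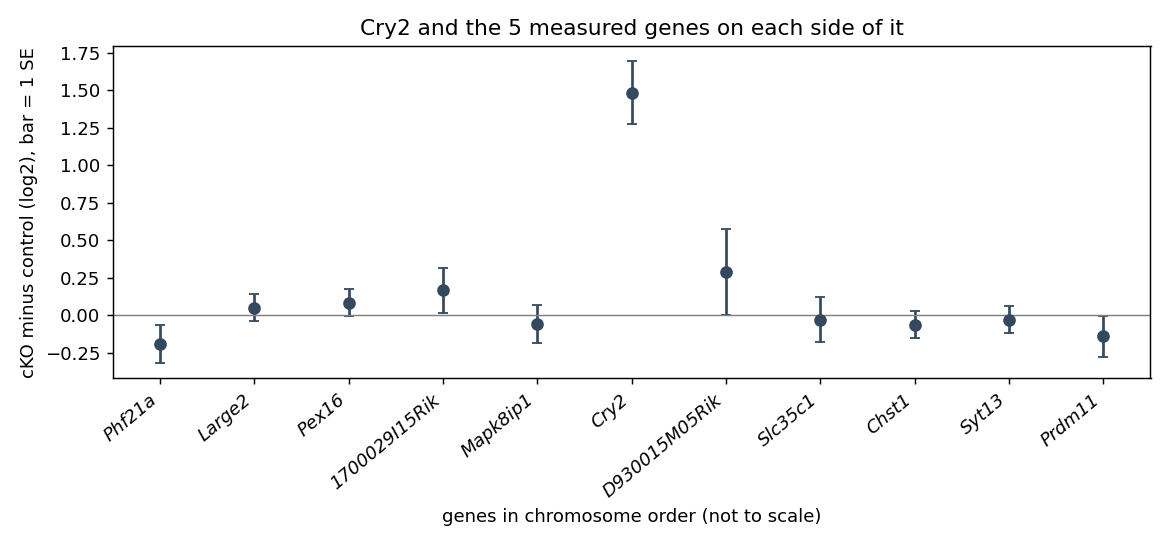
Difference between cKO and control on the log2 scale (vertical axis, bar = 1 standard error) for Cry2 and the 5 measured genes on each side, in chromosome order and not to scale. Cry2 stands at 1.48 while the 10 neighbours lie between -0.19 and 0.29.

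Among genes above the median signal, those whose pattern over the 6 arrays was most like that of Cry2 were Sgk1 and F3 (Pearson r = 0.994 for each), Stra6 (0.987), Rrm1 (0.982) and Ctns (0.98). Sgk1 encodes a kinase induced by glucocorticoids, F3 tissue factor, Stra6 a retinol transporter, Rrm1 a subunit of ribonucleotide reductase and Ctns the cystine transporter of lysosomes. Their differences were small beside that of Cry2, 0.20 for Sgk1, 0.31 for F3, 0.11 for Stra6, 0.18 for Rrm1 and 0.30 for Ctns. Of 9349 genes searched, 88 had an r over 0.9, and the 6 points share the step between the groups. Of the other clock genes Per1 was the most like Cry2, with an r of 0.885 over the same 6 arrays.

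The period genes encode the partners of the cryptochromes in the repressor complex. Per1, which also responds quickly to glucocorticoids and to neuronal activity, had a log2 signal of 7.72, 7.82 and 7.61 in the controls against 7.99, 7.86 and 7.80 in the cKO arrays. All 3 cKO arrays lay above the control mean, but cKO replicate 3 lay just below control replicate 2. The difference was 0.17 with a standard error of 0.090 (limma, unadjusted p = 0.104, adjusted p = 1), with a 95% confidence interval of -0.05 to 0.38. It had the lowest p of the 8 clock genes other than Cry2.

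Of 11 measured genes induced by glucocorticoids, 0 passed the adjusted threshold and 4 had an unadjusted p under 0.05, all 4 higher, against 2.09% of all genes. These were Txnip (0.59), Pdk4 (0.25), Mt2 (0.35) and Sgk1 (0.20), each with an adjusted p of 1 from limma, and the study had already picked Txnip and Mt2 on these arrays. Of the rest, Errfi1 (0.16), Cdkn1a (0.15) and Zbtb16 (0.14) were also higher. Fkbp5 (0.04), Tsc22d3 (0.01), Ddit4 (0.02) and Nfkbia (-0.02), which are also standard targets of the glucocorticoid receptor, were near 0. In all, 10 of the 11 were higher and 1 lower, where 47.5% of all genes were higher. The median difference was 0.15, and 5 of the 11 had groups without overlap, against 8.4% of all genes. The list was made with earlier results of these arrays known and holds Txnip and Mt2, so nothing is read from these counts. Of 11 measured activity-regulated genes, 6 were higher and 5 lower, and their median was 0.01. Npas4, a transcription factor of active neurons, differed by 0.48 and Dusp1, a phosphatase gene, by 0.61, while Egr3 and Arc, also induced by activity, differed by -0.21 and -0.37, so no common direction was seen beside Per1. The part of either group in the value of Per1 was not tested.

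Per3, a period gene that the clock can run without, was nearly level. Its log2 signal was 6.53, 6.46 and 6.40 in the controls against 6.44, 6.47 and 6.35 in the cKO arrays. The ranges of both groups were small, 0.13 and 0.11, and overlapped, so Per3 was one of the tightest measurements in the list. The difference was -0.04 with a standard error of 0.076 (limma, adjusted p = 1), with an interval of -0.22 to 0.14. Per2, the period gene whose loss alone shortens and then stops the mouse rhythm, could only be read from the cluster shared with 9830107B12Rik. There it was at 6.89, 6.82 and 6.80 in the controls against 6.84, 6.82 and 6.85 in the cKO arrays, all 3 cKO values falling within the range of the controls. The difference was 0.0028 (standard error 0.13 in a fit over all clusters).

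The promoters of Per1 and Per3 are shown because they carry different clock elements. E-boxes and D-boxes (TTATGTAA or TTACGTAA, both strands) are in capitals, and in Per1 the capitals further along mark AGGTCA, the half-site that REV-ERB and ROR receptors bind, which reads TGACCT on this strand.
Per1 (chr11:69098699-69098948, plus strand): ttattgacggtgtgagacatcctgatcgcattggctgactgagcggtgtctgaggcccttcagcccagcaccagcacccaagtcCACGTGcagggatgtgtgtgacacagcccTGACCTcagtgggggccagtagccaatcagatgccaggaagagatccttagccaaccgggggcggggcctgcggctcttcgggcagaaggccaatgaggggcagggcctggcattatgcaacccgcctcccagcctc
Per3 (chr4:151044666-151044915, minus strand): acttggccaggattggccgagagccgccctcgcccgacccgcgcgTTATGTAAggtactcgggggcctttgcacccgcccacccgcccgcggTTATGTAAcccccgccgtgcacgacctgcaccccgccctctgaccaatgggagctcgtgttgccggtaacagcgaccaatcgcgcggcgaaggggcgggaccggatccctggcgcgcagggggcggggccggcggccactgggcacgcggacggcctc
Per1 has a further start site in the table, not shown, without any of these motifs. The E-box of Per1 begins 166 bases before this start. Per3 has 2 D-boxes, the type of element through which DBP acts, where 0.931% of all windows hold at least 1. AGGTCA is found in 14% of windows. Of the 10 clock genes, 9 have an entry in the table with 13 windows in all, of which 2 hold an E-box, 3 a CACGTT, 1 a D-box and 3 an AGGTCA.

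**Figure D2:**
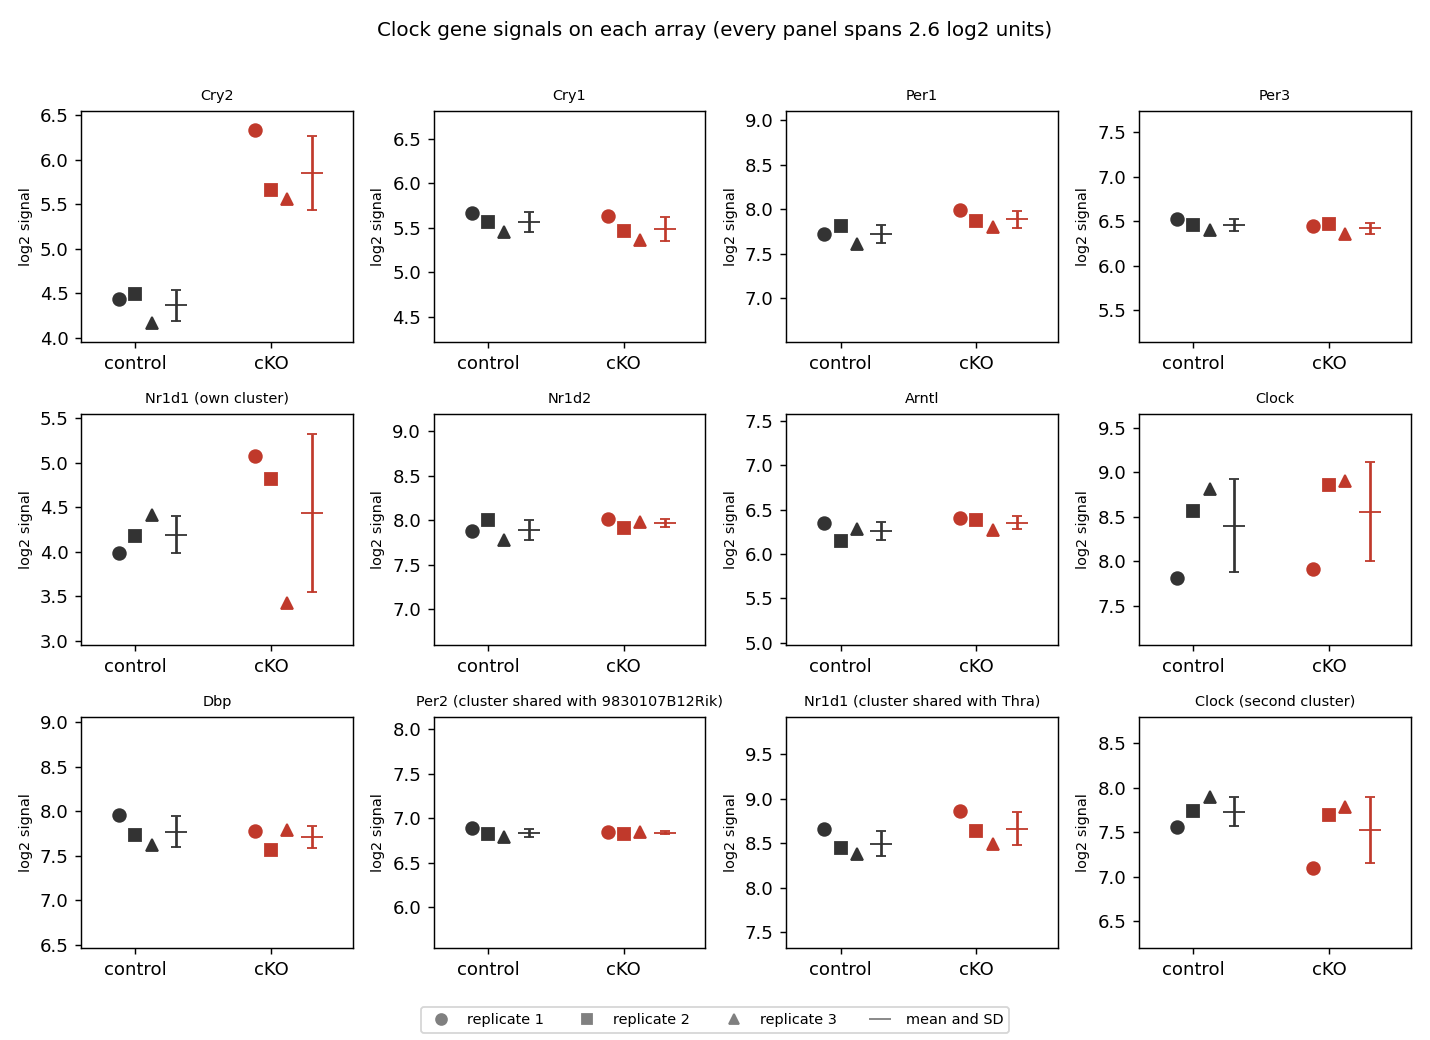
Log2 signal (vertical axis) of each clock gene on each array, controls in grey and cKO in red, with replicates 1, 2 and 3 as circle, square and triangle and the mean with its SD beside them. Cry2 is the panel in which the groups part, Clock is lowest in both arrays numbered 1, and the last 3 panels give the shared clusters of Per2 and Nr1d1 and the second cluster of Clock.

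Arntl, one of the activators and the gene on which the second loop acts, was at 6.35, 6.15 and 6.28 in the controls against 6.40, 6.38 and 6.27 in the cKO arrays. All 3 cKO values were above the control mean, yet cKO replicate 3 lay below 2 of the 3 controls. The difference was 0.09 with a standard error of 0.085 (limma, adjusted p = 1), with an interval of -0.11 to 0.29.

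Clock, which encodes the partner of ARNTL, varied more between arrays than between genotypes. Its brighter cluster was at 7.81, 8.57 and 8.82 in the controls against 7.91, 8.85 and 8.90 in the cKO arrays. In both groups the array numbered 1 was lowest, by 0.88 below the mean of the other 2 controls and by 0.96 below the other 2 cKO arrays. The mean of these gaps was larger than that of 99.6% of all genes, and these are the same 2 arrays that the first principal component set apart. The genotype difference was 0.16 with a standard error of 0.34 (limma, adjusted p = 1) and turned to -0.14 without control replicate 1 and -0.02 without cKO replicate 3. The dimmer cluster of Clock was at 7.56, 7.74 and 7.90 in the controls against 7.10, 7.69 and 7.78 in the cKO arrays. It was also lowest in both arrays numbered 1, but its difference was of opposite sign, -0.21 (standard error 0.22), so no direction can be given for Clock.

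Nr1d1, the gene of REV-ERB alpha, had the widest spread among the 9 genes. Its own cluster, 6784043, was at 3.99, 4.18 and 4.41 in the controls against 5.08, 4.81 and 3.43 in the cKO arrays. Replicates 1 and 2 of the cKO lay above all controls and cKO replicate 3 below all of them, so the difference of 0.25 with a standard error of 0.41 (limma, adjusted p = 1) turned to -0.07 without cKO replicate 1. This cluster was dim, above 22% of genes, and its place in the numbering of the array is at odds with its name. For 98% of 1000 clusters drawn for a check, most of the 20 nearest-numbered clusters belong to genes of the same chromosome and strand. For this cluster 18 of the 20 were on the chromosome of Nr1d1 and 0 on its strand. Nr1d1 overlaps Thra, a thyroid hormone receptor gene on the other strand, and whether this cluster measures Nr1d1 was not tested.

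The cluster that carries both symbols, Nr1d1 and Thra, had all 20 nearest-numbered clusters on the chromosome and strand of Nr1d1. It was at 8.66, 8.45 and 8.38 in the controls against 8.86, 8.64 and 8.50 in the cKO arrays. The cKO arrays were somewhat higher, but 2 of them fell between the lowest and highest control. The difference was 0.17 with a standard error of 0.16 (limma over all clusters, adjusted p = 1), close to that of Per1. Thra in its own cluster differed by -0.11 (standard error 0.077).

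Nr1d2, the gene of REV-ERB beta, was at 7.88, 8.01 and 7.78 in the controls against 8.01, 7.91 and 7.98 in the cKO arrays. The cKO values lay closer together than the controls, and 2 of the 3 fell within the control range. The difference was 0.08 with a standard error of 0.085 (limma, adjusted p = 1), with an interval of -0.12 to 0.28. A dim second cluster annotated as Nr1d2 differed by -0.20 (standard error 0.20), but 0 of its 20 nearest-numbered clusters were on the chromosome of Nr1d2. Dbp, the output factor whose mRNA swings widely over the day in many mouse tissues, was at 7.96, 7.73 and 7.62 in the controls against 7.77, 7.56 and 7.79 in the cKO arrays. Its groups overlapped, with control replicate 1 the highest and cKO replicate 2 the lowest. The difference was -0.06 with a standard error of 0.11 (limma, adjusted p = 1), with an interval of -0.33 to 0.21, and it turned to 0.03 without control replicate 1 and to 0.01 without cKO replicate 2.

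Whether the 2 arms moved against each other was described for each array. The arms are sets by function and not by time of peak, so their contrast is not a reading of phase. Each gene was set relative to its control mean and averaged over the activators (Arntl and Clock) and over the 6 measured repressors (Cry1, Cry2, Per1, Per3, Nr1d1 and Nr1d2). The activator arm was at -0.25, 0.03 and 0.22 in the controls against -0.17, 0.29 and 0.26 in the cKO arrays. It was low in both arrays numbered 1, as Clock was, and the groups overlapped. The repressor arm was at 0.01, 0.06 and -0.06 in the controls against 0.55, 0.33 and 0.05 in the cKO arrays. Here cKO replicate 3 fell within the range of the controls. On that array Nr1d1, whose own cluster is in doubt as said above, stood at -0.77. The mean of the activator arm was 0.12 higher in the cKO, with Clock, which has no settled direction, as 1 of its 2 genes. That of the repressor arm was 0.31 higher, or 0.08 without Cry2, both with the doubtful cluster of Nr1d1 included.

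The repressor arm minus the activator arm was 0.26, 0.03 and -0.28 in the controls against 0.72, 0.04 and -0.21 in the cKO arrays. The spread within each genotype, an SD of 0.27 in the controls against 0.48 in the cKO, was larger than the difference of their means, 0.19. Without Cry2 this difference was -0.05, and without cKO replicate 1 it was -0.08, so its sign rested on 1 gene and on 1 array. Without Nr1d1 the difference was 0.20, and without both Cry2 and Nr1d1 it was -0.09.

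A contrast that leaves out both Cry genes and Clock set the E-box driven genes Per1, Per3, Nr1d1, Nr1d2 and Dbp against Arntl. It was -0.08, 0.14 and -0.06 in the controls against 0.12, -0.01 and -0.14 in the cKO arrays. The 2 groups covered much the same range and their means differed by -0.01. With the shared clusters of Per2 and Nr1d1 in place, the values were -0.01, 0.13 and -0.12 in the controls against -0.01, -0.11 and 0.01 in the cKO arrays, a difference of -0.04. On this measure every cKO array lay within the range of the controls. With 3 arrays a group, a difference smaller than this spread was not detectable. The hour is not given and no series of times was sampled, so a shift of phase, of any size, was not tested.

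**Figure D3:**
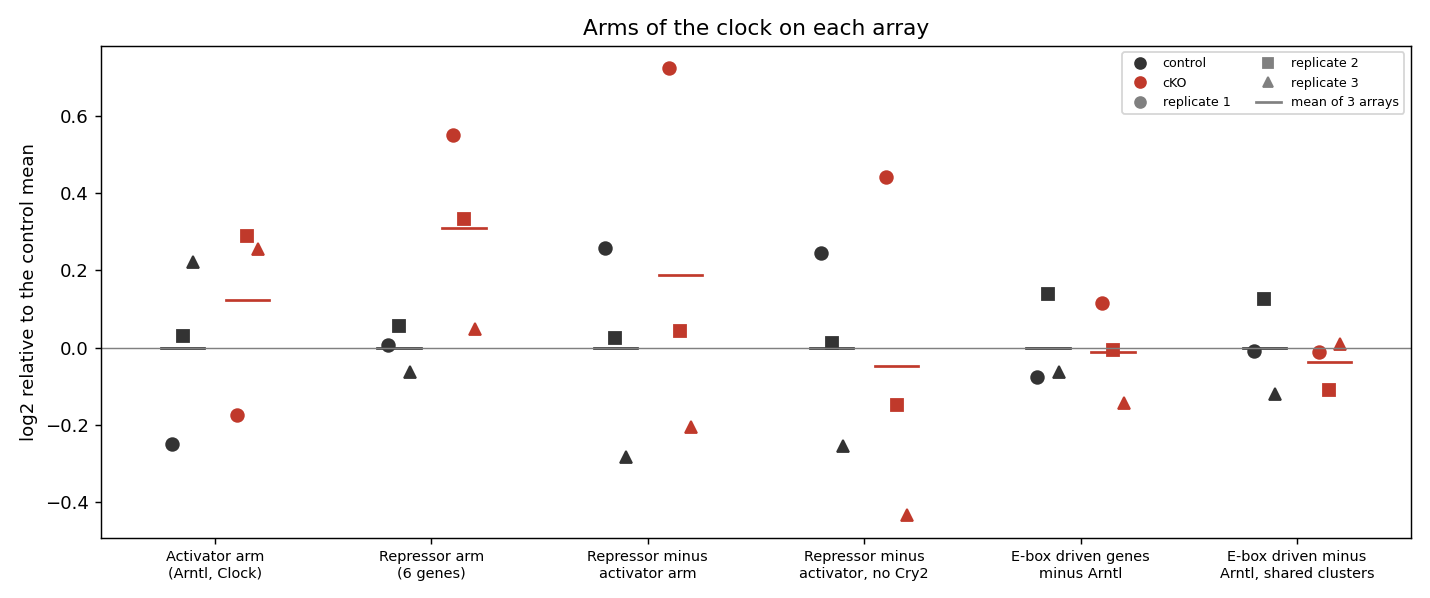
Mean log2 signal relative to the control mean (vertical axis) on each array for the activator arm, the repressor arm and contrasts between them, controls in grey and cKO in red, with replicates 1, 2 and 3 as circle, square and triangle and the group mean as a line. The repressor minus activator contrast spans -0.28 to 0.26 in the controls against -0.21 to 0.72 in the cKO, and without Cry2 the means differ by -0.05.

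Of the 9 clock genes 6 had a higher and 3 a lower mean in the cKO, with a median difference of 0.09, where 47.5% of all genes were higher and the median of all genes was -0.01. The 6 include Cry2, chosen for its difference, Clock, which has no settled direction, and Nr1d1, whose cluster is in doubt. With the clusters of a gene averaged, Clock was at -0.026 and Nr1d2 at -0.0586. For Nr1d2 that average includes its dim second cluster, whose place in the numbering is at odds with its name. In limma 0 of 9 reached an adjusted p under 0.05, as did 0% of all genes. At an unadjusted p under 0.05 there was 1 of 9, Cry2, which was higher, against 3.96% of all genes in either direction and 2.09% higher. Since Cry2 was chosen for its difference on these arrays, nothing is read from that count.

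The partners and regulators of the clock were near level in their median, while single genes differed in both directions. Of 16 listed, 14 were measured, 8 higher and 6 lower, and their median difference was 0.02, and none passed the adjusted threshold or an unadjusted p of 0.05. Nfil3, a repressor that competes with DBP at D-boxes, came closest to Cry2 in form, with log2 signals of 5.45, 5.51 and 5.16 in the controls against 5.60, 5.61 and 5.55 in the cKO arrays. It was the only one of the 14 without overlap, where 8.4% of all genes had none, and the gap was narrow beside the spread of the controls, and the difference was 0.21 with a standard error of 0.11 (limma, adjusted p = 1). Bhlhe40, which encodes the E-box repressor DEC1, was at 6.76, 7.06 and 6.93 in the controls against 7.19, 7.14 and 7.05 in the cKO arrays. Its lowest cKO value lay just under the highest control, and the difference was 0.21 (standard error 0.098). Csnk1d, a kinase gene whose product marks PER proteins for breakdown, differed by 0.11, and Gsk3b, another kinase gene of the clock, by -0.13. Npas2, which can stand in for CLOCK in the forebrain, differed by 0.0020 (standard error 0.086), and Ciart, an E-box driven repressor, by -0.06 (standard error 0.095). Rorb, a nuclear receptor gene, had the widest error, -0.26 with a standard error of 0.61.

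The output genes of the clock were also near level in their median. Of 10 listed, 9 were measured, 6 higher and 3 lower, and their median difference was 0.03, and none passed either threshold. Hlf, which encodes a D-box factor related to DBP, differed by 0.17 (standard error 0.14) and Tef, the third factor of that family, by -0.02 (standard error 0.11). Cdkn1a, a cell cycle inhibitor gene, differed by 0.15, Nampt, the gene of the enzyme that limits NAD synthesis from nicotinamide, by 0.10 and Lonrf3 by 0.06. Wee1, a mitotic kinase gene driven by E-boxes, differed by -0.06 (standard error 0.083) and Usp2, a deubiquitinase gene, by -0.0047 (standard error 0.069). The differences of these 9 genes lay between -0.06 and 0.17.

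**Figure D4:**
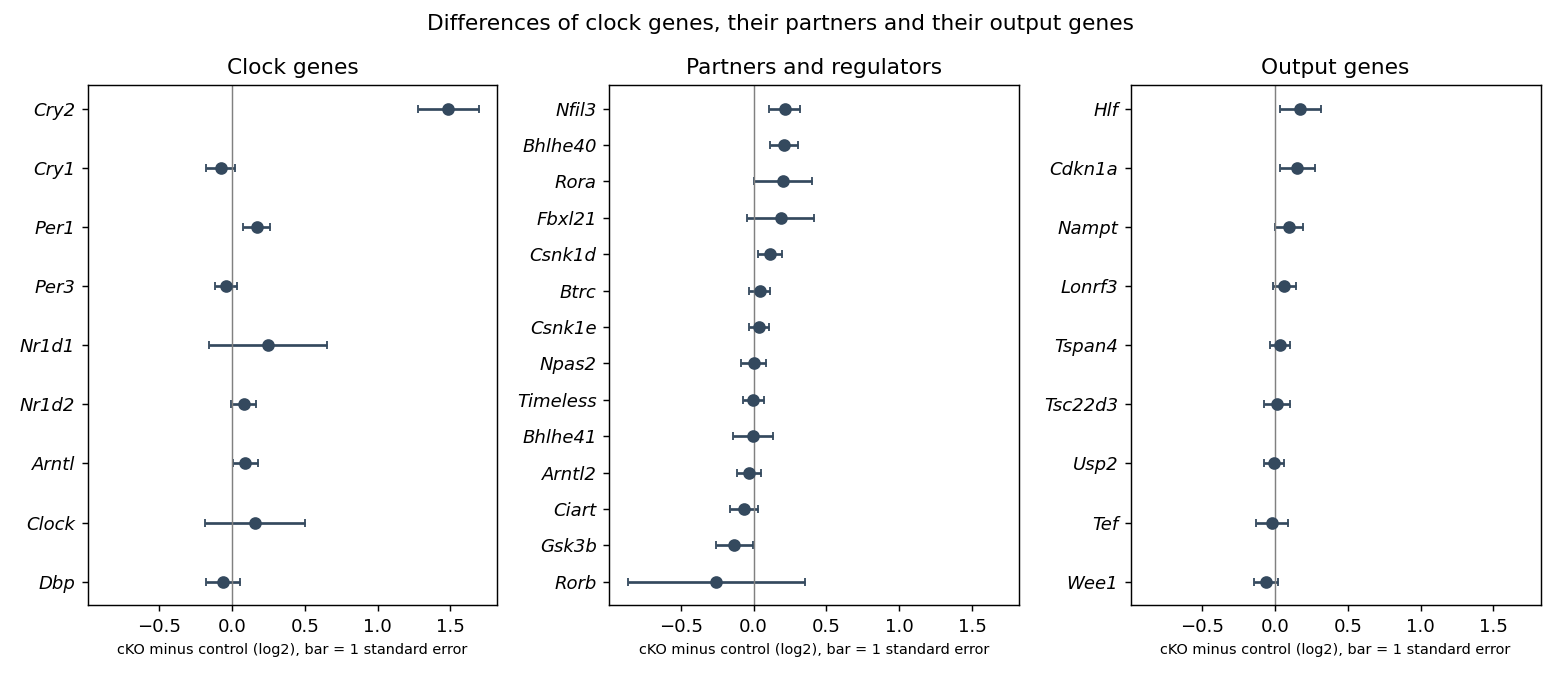
Difference between cKO and control on the log2 scale (horizontal axis, bar = 1 standard error) for the 9 clock genes, 14 partners and regulators and 9 output genes. Cry2 lies at 1.48, and the other genes lie between -0.26 and 0.25.

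The suprachiasmatic nucleus of the hypothalamus, which holds the master clock, lies outside the cortex, and its markers were read as a check on what the tissue held. All 10 were measured, 2 higher and 8 lower, and their median difference was -0.03, and none passed. Their summed linear signal was 486 to 516 in the controls against 463 to 552 in the cKO arrays, so the groups overlapped. Prokr2, a receptor gene of this nucleus, had the lowest p and differed by -0.21 (standard error 0.14), Vip, a peptide gene that cortical interneurons also express, by 0.13, and the homeobox genes Six3 and Lhx1 by -0.12 and -0.05. The cold-inducible RNA-binding protein genes Rbm3 and Cirbp, whose products act on clock mRNAs, differed by -0.10 (standard error 0.090) and 0.11 (standard error 0.12), with overlapping groups in both.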

How the data were processed

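The values deposited by the authors are log2 signals of 6 Affymetrix mouse exon 1.0 ST arrays, 1 value for each cluster and array, summarised and normalized before deposit. The methods name GeneSpring, while the sources used here do not give the summarisation or the genome build. A second table holds the p-values and fold changes of the authors' own comparison, and it was not used. Of 101175 clusters, 22754 have 1 gene symbol, 1522 several, and 76899 are unnamed here. The brightest cluster of each gene was kept, with symbols updated for 22245 clusters through RefSeq (GRCm38.p6), and the shared cluster of Atg7 was added, giving 19688 genes without a filter on dim genes. Signals were tested two-sided as cKO minus control in limma 3.58.1 under R 4.3.3 (lmFit, then eBayes), and p-values were adjusted across all genes by Benjamini-Hochberg with a threshold of 0.05. The test was checked on simulated data. The members and lists were chosen with earlier results of these data known.

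Genes named were all members, Atg7, Rbm3, Cirbp, the neighbours of Cry2, up to 4 members of each list with the lowest p, and the 5 brighter genes most like Cry2. D930015M05Rik, Thra, Xist, Neurod6, Ttr, Fkbp5, Tsc22d3, Ddit4, Nfkbia, Npas2, Ciart, Rorb, Tef, Wee1 and Usp2 fall outside parts of this rule or were chosen after their values were seen. Por, Klf9 and Egr4 were not analysed here. Alternatives were another normalization, a filter on dim genes, averaged clusters, a trended spread, a looser threshold of 0.1, a replicate block and leaving out each array. The use of shared clusters, the arm without Nr1d1, the repressor arm alone without Cry2 and a block for the arrays numbered 1 were added after the data were seen.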

Additional observations from a re-analysis of the deposited data

How the results depend on the processing

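The count of clock genes past the adjusted threshold was 0 under every alternative run, and so were those of the partners, output genes, suprachiasmatic markers, glucocorticoid-induced and activity-regulated genes. Over all genes the count was 1 when the lowest 25% of genes by signal were dropped and 1 when all clusters of each gene were averaged, the gene being Peg10 both times. Cry2 kept its direction in all 14 alternatives (1.24 to 1.63), with adjusted p-values from limma of 0.208 to 1. Its groups did not overlap, so leaving out 1 array could not turn its direction. The blocks, the looser threshold, the trended spread and the filter on dim genes left the difference at 1.48. Since Cry2 was also chosen for its difference, nothing is read from this count. Cry1, Per1, Per3 and Arntl kept their direction in all alternatives run, but not their size. Leaving out 1 array moved Cry1 between -0.15 and -0.0147, Per1 between 0.114 and 0.218, Per3 between -0.0721 and -0.00545, Arntl between 0.0365 and 0.133, Nr1d2 between 0.0274 and 0.14, Clock between -0.137 and 0.477, Dbp between -0.136 and 0.0344, Nr1d1 between -0.0724 and 0.753, and the median of the neighbours of Cry2 between -0.0981 and 0.0505. Clock was at -0.208 in its other cluster and -0.026 with clusters averaged, and Nr1d2 at -0.199 and -0.0586. The other cluster of Nr1d2 is dim, and its place in the numbering is at odds with its name. The repressor arm minus the activator arm lay between -0.081 and 0.384, moved by less than the SD of the controls in each case, and was -0.0262 with medians in place of means. The median of the output genes lay between 0.00269 and 0.0962, that of the partners between 0.0177 and 0.0647 and that of the suprachiasmatic markers between -0.104 and 0.00834. With the replicate number as a block the difference of Cry2 was 1.48 (adjusted p = 0.385 from limma) and no call changed. Same-numbered arrays deviated together with correlations of 0.307, 0.0376 and 0.166, against -0.182, 0.0466 and 0.164 for the best other array. The same number was thus the best match for replicates 1 and 3 and not for replicate 2. The numbers were not taken to pair the samples in the main fit. The number of arrays and the dim signals of Cry2 in the controls and of Nr1d1 limit what can be resolved.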
